A study of Mus musculus with 12 samples.

Results

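Transcripts of 10 genes of the endoplasmic reticulum (ER) folding machinery were followed in C2C12 cells, an immortalised mouse myoblast line that stops dividing and fuses into myotubes when serum is lowered. The genes were chosen by name: the chaperones and folding enzymes Hspa5, Hsp90b1, Pdia4, Pdia6, Sdf2l1, Creld2, Manf and Calr, the transcription factor gene Xbp1 and its target Dnajb9. They carried 14 of the 45281 probes of the Illumina bead arrays, 12 of these probes were kept by the filter on dim signals, and 9 of the 10 genes entered a test that ran over 10653 genes. Only Manf was left out, since its single probe was above background on 0 of 12 arrays.

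The 12 arrays formed 4 groups of 3. Day1 and Day2 cells had been kept for 24 h and 48 h in differentiation medium, which is DMEM with 2% horse serum. Another group was transfected with a small RNA that imitates miR-206, a microRNA of skeletal muscle, and cultured for 24 h (the mimic group). The last group was transfected with antimiR-206, which inhibits the same microRNA, and was harvested after 48 h of culture. The labels call Day1 and mimic cells undifferentiated and Day2 and antimiR-206 cells at the beginning of differentiation. A lipid transfection is recorded for all samples, and the labels state neither whether Day1 and Day2 cells received a control oligonucleotide nor which medium the transfected cells were kept in. All samples are the same line, and replicates are numbered without being called separate cultures, so p-values reflect the spread among these arrays alone, and that spread may be technical. The comparisons address how the ER folding genes differ between the first and second day of differentiation, and how each differs when miR-206 is imitated or inhibited.

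Secreted and membrane proteins fold inside the ER. When unfolded proteins accumulate there, the chaperone BiP, encoded by Hspa5, leaves the sensors IRE1, PERK and ATF6. IRE1 then splices the Xbp1 mRNA into a form that encodes an active transcription factor, ATF6 releases another factor by cleavage, and PERK slows translation and raises ATF4 and CHOP. XBP1 and ATF6 raise chaperones, disulfide isomerases and degradation components, many of them through a promoter element named ERSE, to which the factor NF-Y also binds. Which form of Xbp1 mRNA the array probe detects was not analysed here.

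The mature sequence that the mimic imitates and the inhibitor opposes is given first, with its seed (bases 2 to 8) in capitals. It lies at chr1:20679055-20679076 (plus strand, GRCm38.p6, RefSeq).
mmu-miR-206-3p: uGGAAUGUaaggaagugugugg

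Promoters were read from RefSeq (GRCm38.p6) over 300 bases, from 250 before to 50 after the annotated start, for 9 of the 10 genes; Manf had no entry. The ERSE letters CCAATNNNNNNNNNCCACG were searched on both strands. They stood in 39 of 32851 mouse promoters (0.119%) and in 5 of the 9 listed ones, those of Hspa5, Hsp90b1, Pdia6, Creld2 and Calr. The stretches that hold them are shown because the estimates of the genes that carry the same element were not all alike below. Capitals mark the fixed letters, and a match on the other strand reads CGTGG followed by ATTGG.
Hspa5: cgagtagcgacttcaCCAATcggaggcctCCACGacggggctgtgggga
Hsp90b1: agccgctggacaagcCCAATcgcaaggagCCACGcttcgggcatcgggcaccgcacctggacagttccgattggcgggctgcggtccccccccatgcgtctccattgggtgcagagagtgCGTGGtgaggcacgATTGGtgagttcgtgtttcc
Pdia6: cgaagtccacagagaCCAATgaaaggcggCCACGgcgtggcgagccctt
Creld2: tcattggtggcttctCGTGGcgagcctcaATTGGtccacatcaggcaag
Calr: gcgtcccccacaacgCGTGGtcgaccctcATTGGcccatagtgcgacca

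The Hspa5 stretch lies at chr2:34772010-34772058 on the plus strand, with its element 65 to 47 bases before the start. That of Hsp90b1 lies at chr10:86705518-86705671 on the minus strand and is the only one with 2 elements, 212 to 194 and 107 to 89 bases before the start. Pdia6 has its element at 98 to 80 bases (chr12:17266476-17266524, plus strand). Creld2 has it at 126 to 108 bases (chr15:88819505-88819553, plus strand) and Calr at 162 to 144 bases (chr8:84847060-84847108, minus strand). Pdia4 held a version with 1 fixed letter changed, which 455 promoters without an exact match shared (1.39%), and the promoters of Sdf2l1, Xbp1 and Dnajb9 held neither. A second ER stress element, ERSE-II (ATTGGNCCACG), stood in 12 promoters (0.0365%) and the XBP1 element UPRE (TGACGTGG) in 222 (0.676%), none of them listed here. A match of letters is a description of the window and not evidence of binding.

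Between 16636 and 18234 probes (36.7% to 40.3%) were above background per array, so the median raw intensity of 49.5 to 63.2 lay at background. The bright probes differed more before normalization: the 95th percentile of raw intensity was 611 to 1539 on Day1 arrays, 422 to 1404 on Day2, 552 to 1233 on mimic and 799 to 1601 on antimiR-206 arrays, ranges that overlap between groups. The 6 annotated myotube markers summed to 51110 to 61170 normalized intensity units on Day2 arrays, against 161 to 237 on Day1, 183 to 272 on mimic and 218 to 270 on antimiR-206 arrays. The label places antimiR-206 cells at the beginning of differentiation. There 4 of the 6 myotube markers were above background on at least 1 array, and Myog and Ckm on none. On Day1 and on mimic arrays 3 of the 6 were, with Myog, Tnnt3 and Ckm on none. Against Day1, 1 of the 6 was higher with antimiR-206 (16.7%) and 0 lower, beside 22.7% of all genes called in either direction. Of the 5 myoblast markers 4 were above background in each group and Myf5 in none, and their sum was 16360 to 17420 at Day2 against 3221 to 3335 at Day1. The sum over 9 interferon response genes was 37740 to 40500 on Day2 arrays, 255 to 282 on Day1, 418 to 1435 on mimic and 726 to 1407 on antimiR-206 arrays, with Ifit1 never above background. Among markers of other cells, Pecam1, Cdh5, Ptprc, Fabp4, Plin1, Ibsp and Sp7 were above background on no array (2 of 4 endothelial, 1 of 3 macrophage, 2 of 4 adipocyte and 2 of 4 osteoblast markers). The summed level of the endothelial genes stayed between 81.4 and 90.4, but the other sums moved with the groups. The macrophage sum was 152 to 179 on Day1 arrays, 94.98 to 117 on Day2, 169 to 184 on mimic and 201 to 207 on antimiR-206 arrays. The adipocyte sum was 354 to 391 on Day1, 766 to 930 on Day2, 359 to 875 on mimic and 658 to 1037 on antimiR-206 arrays, and the osteoblast sum was 145 to 183, 384 to 506, 144 to 245 and 184 to 265. The part of these differences in the results below was not tested. In RNA from whole cultures, fewer cells of a type and less RNA per cell cannot be told apart. Mimic replicate 1 stood apart: its mean correlation over the genes tested was 0.9926 with Day1 arrays and 0.971 with the other mimic arrays, so the changes of the mimic group against Day1 are given with and without it. That array was picked on these same data for its closeness to Day1. Leaving it out therefore favours larger differences from Day1, and calls made without it are a description and not independent support. AntimiR-206 replicate 1 lay farther from Day1 (mean correlation 0.9645) than the other antimiR-206 arrays (0.9801 and 0.9792).

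**Figure D1:**
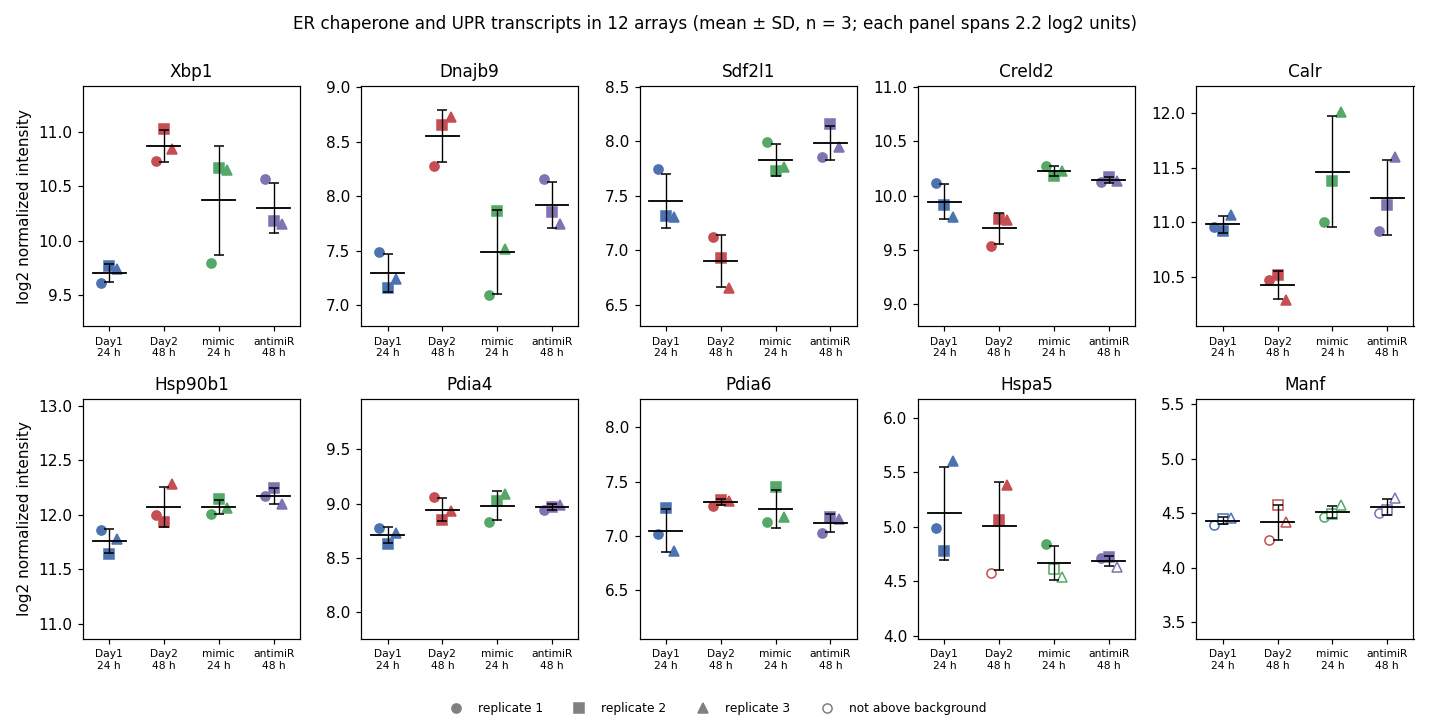
Log2 normalized intensity (y axis) of the 10 genes on each of 12 arrays, by group (x axis). Symbols are replicates, bars are the mean ± SD (n = 3), open symbols are values not above background, and every panel spans the same number of log2 units. Xbp1 and Dnajb9 are highest on the 3 Day2 arrays, while Sdf2l1, Creld2 and Calr are lowest there; Hspa5 and Manf lie near background.

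Xbp1 was the first of 2 genes that were highest on the Day2 arrays. Its log2 normalized intensity was 9.61, 9.77 and 9.74 on Day1 arrays, 10.73, 11.03 and 10.84 on Day2, 9.79, 10.67 and 10.65 on mimic, and 10.57, 10.18 and 10.15 on antimiR-206 arrays. All Day2 values lay above all others, all Day1 values lay below all others, and the mimic and antimiR-206 values overlapped. Xbp1 rose 2.24-fold from Day1 to Day2 (log2 change 1.16, SE 0.20, adjusted p = 0.000184). With antimiR-206 it was 1.48-fold lower than at Day2 (log2 change −0.57, SE 0.20, adjusted p = 0.0275) and 1.51-fold higher than at Day1 (log2 change 0.60, adjusted p = 0.0446). The Day2 rise passed the test whichever of the 12 arrays was left out, with a log2 change of 1.09 to 1.23. The call against Day1 with antimiR-206 was lost whichever Day1, Day2 or antimiR-206 array was left out (0.46 to 0.67, adjusted p up to 0.184) and in 4 of 12 other settings (adjusted p up to 0.735).

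Dnajb9, the J-domain partner of BiP in the ER and a direct target of XBP1, was also highest at Day2. Its main probe read 7.49, 7.16 and 7.24 on Day1 arrays, 8.27, 8.66 and 8.73 on Day2, 7.09, 7.86 and 7.51 on mimic, and 8.16, 7.86 and 7.75 on antimiR-206 arrays. Only the Day2 group was separate from its neighbour, and the other 3 groups overlapped in order. Dnajb9 rose 2.39-fold from Day1 to Day2 (log2 change 1.26, SE 0.19, adjusted p = 7.37e-05), also whichever array was left out (1.17 to 1.40). It was 1.55-fold lower with antimiR-206 than at Day2 (log2 change −0.63, SE 0.19, adjusted p = 0.0136) and 1.54-fold higher than at Day1 (log2 change 0.63, adjusted p = 0.0328). The latter call was lost without Day1 replicate 2 or 3 or antimiR-206 replicate 1 or 2 (adjusted p up to 0.141) and in 4 of 12 other settings (adjusted p up to 0.717). The dimmer second probe of Dnajb9 was read in a fit over all 19809 kept probes. It gave a log2 change of 1.25 at Day2 (adjusted p = 3.42e-05) and −0.82 between antimiR-206 and Day2 (adjusted p = 0.00159). Between antimiR-206 and Day1 it gave 0.44 (adjusted p = 0.0977), which did not pass.

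The calls of Xbp1 and Dnajb9 between antimiR-206 and Day2 were lost without some single arrays, while the log2 changes with 1 array left out stayed at −0.70 to −0.49 and −0.77 to −0.54. Xbp1 lost that call without Day2 replicate 2 (−0.49, adjusted p = 0.0975) or 3, and without antimiR-206 replicate 2 or 3. Dnajb9 lost it without Day2 replicate 2 or 3 and without antimiR-206 replicate 3, with adjusted p = 0.0503 to 0.0607. With arrays scaled to a common 75th percentile the changes were −0.33 (adjusted p = 0.215) and −0.50 (adjusted p = 0.0861), and with a common median they were −0.02 (SE 0.53, adjusted p = 0.986) and −0.19 (SE 0.54, adjusted p = 0.859). A common median also moved the median change of all genes, from 0.03 to 0.31. Relative to that median Xbp1 was at −0.33 and Dnajb9 at −0.50, against −0.60 and −0.66 in the reported fit. Over the other settings tried, the adjusted p of Xbp1 ran from 2.02e-06 to 0.986 and that of Dnajb9 from 6.66e-06 to 0.859.

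Sdf2l1, Creld2 and Calr ran the other way and were lowest at Day2. Sdf2l1, an ER protein that works with J-domain chaperones, read 7.74, 7.31 and 7.31 on Day1 arrays, 7.12, 6.93 and 6.65 on Day2, 7.99, 7.72 and 7.77 on mimic, and 7.86, 8.16 and 7.95 on antimiR-206 arrays. Its Day2 values lay below all others, and its antimiR-206 values above all Day1 and Day2 values. Sdf2l1 was 1.47-fold lower at Day2 than at Day1 (log2 change −0.55, SE 0.16, adjusted p = 0.00856). It was 2.12-fold higher with antimiR-206 than at Day2 (log2 change 1.09, SE 0.16, adjusted p = 6.59e-05), a call that held in all 12 other settings and whichever array was left out. Against Day1 the antimiR-206 level was 1.45-fold higher (log2 change 0.53, adjusted p = 0.0297), a call lost without Day1 replicate 2 or 3 or any 1 antimiR-206 array (adjusted p up to 0.117) and in 3 of 12 other settings (adjusted p up to 0.786).

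Creld2, an ER stress-inducible protein with disulfide isomerase activity, had narrow spreads. Its brighter probe read 10.12, 9.92 and 9.80 on Day1 arrays, 9.53, 9.79 and 9.77 on Day2, 10.27, 10.18 and 10.23 on mimic, and 10.13, 10.17 and 10.13 on antimiR-206 arrays. On this probe every neighbouring pair of groups was separate, in the order Day2, Day1, antimiR-206 and mimic, though the nearest values of Day1 and antimiR-206 were 10.12 and 10.13. On the second probe only Day2 was separate. There Day1 replicate 1 (10.23) lay above the antimiR-206 values of 10.15, 10.14 and 10.13, and the mimic values were 10.10, 10.10 and 10.25. Creld2 was 1.36-fold higher with antimiR-206 than at Day2 (log2 change 0.45, SE 0.10, adjusted p = 0.00244). Its log2 change from Day1 to Day2 was −0.25 (SE 0.10, adjusted p = 0.0544), which did not pass, while the second probe fell by 0.40 (adjusted p = 0.00355). The second probe gave 0.52 for antimiR-206 against Day2 (adjusted p = 0.000665) and 0.12 for the mimic against Day1 (adjusted p = 0.472).

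Calr encodes calreticulin, the lectin chaperone that binds ER calcium and monoglucosylated glycoproteins. It read 10.95, 10.92 and 11.07 on Day1 arrays, 10.47, 10.52 and 10.28 on Day2, 10.999, 11.38 and 12.01 on mimic, and 10.92, 11.16 and 11.60 on antimiR-206 arrays. Day2 was separate from the other groups, which overlapped, and the SD of 0.51 in the mimic group was the widest of this gene against 0.08 at Day1. Calr was 1.47-fold lower at Day2 than at Day1 (log2 change −0.56, SE 0.21, adjusted p = 0.0386) and 1.74-fold higher with antimiR-206 than at Day2 (log2 change 0.80, SE 0.21, adjusted p = 0.00628). The first call was lost whichever of the 6 arrays compared was left out, with adjusted p up to 0.114, and without the filter on dim probes (0.0667), whereas the second held whichever array was left out. The second Calr probe was above background on 0 of 12 arrays (raw intensity 43.3 to 56.5, against 655 to 4117 for the probe used).

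**Figure D2:**
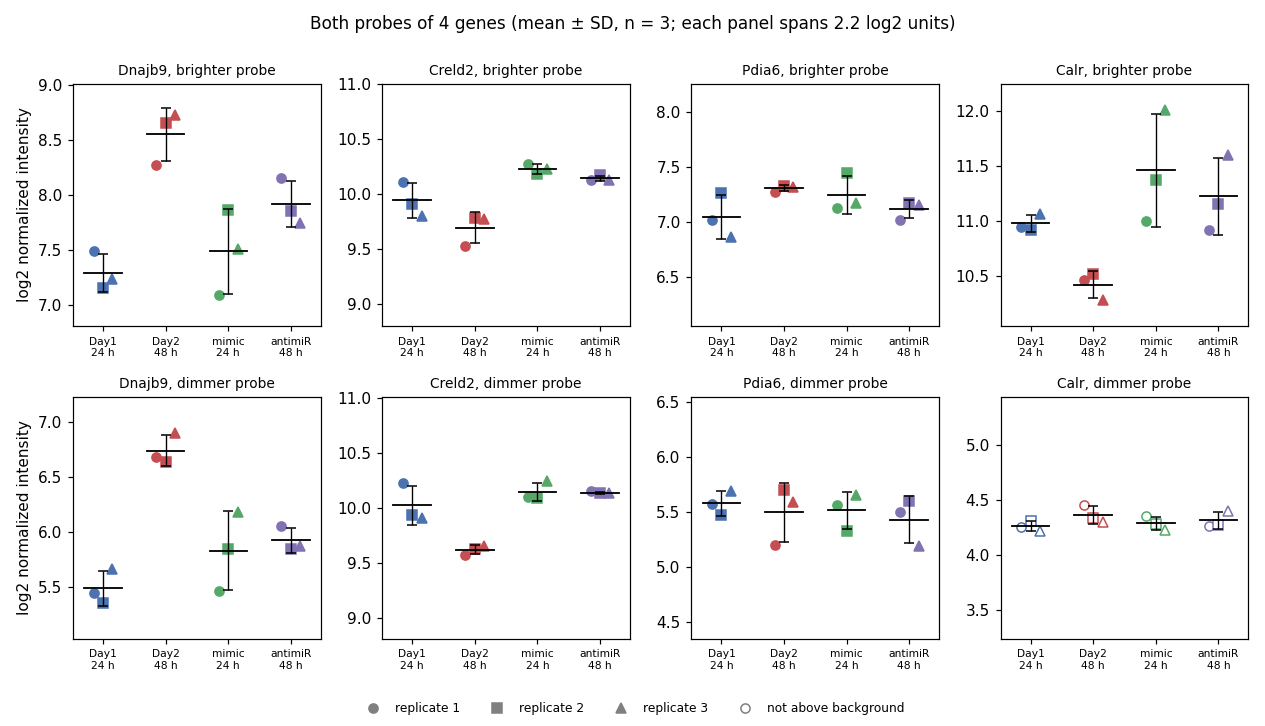
Log2 normalized intensity (y axis) of the brighter (top) and dimmer (bottom) probe of the 4 genes with 2 probes, by group (x axis), with the mean ± SD (n = 3); open symbols are not above background. Both probes of Dnajb9 are highest and both probes of Creld2 lowest at Day2, whereas the dimmer Calr probe is at background. The probes of Pdia6 differ in the sign of their changes against Day1, none of which passed.

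From Day1 to Day2 the abundant chaperone Hsp90b1 and the disulfide isomerases Pdia4 and Pdia6 changed less than Xbp1, Dnajb9, Sdf2l1 and Calr. Hsp90b1, the ER member of the Hsp90 family, read 11.86, 11.64 and 11.78 on Day1 arrays, 11.997, 11.94 and 12.28 on Day2, 12.01, 12.14 and 12.06 on mimic, and 12.17, 12.25 and 12.10 on antimiR-206 arrays. Day1 was below all other groups, and the other 3 groups overlapped. Hsp90b1 was 1.24-fold higher at Day2 (log2 change 0.31, SE 0.10, adjusted p = 0.0177) and 1.33-fold higher with antimiR-206 (log2 change 0.41, SE 0.10, adjusted p = 0.0144) than at Day1. The Day2 call was lost without Day1 replicate 2 (0.25, adjusted p = 0.0818) or Day2 replicate 3 (0.21, adjusted p = 0.101) and with a common 75th percentile (0.04, adjusted p = 0.912), and its sign turned with a common median (−0.06, where the median of all genes was −0.12). The call with antimiR-206 was lost without Day1 replicate 2 or 3 or antimiR-206 replicate 1 (adjusted p up to 0.0695) and with a common median or 75th percentile (adjusted p up to 0.871).

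Pdia4 read 8.77, 8.63 and 8.73 on Day1 arrays, 9.06, 8.85 and 8.93 on Day2, 8.83, 9.03 and 9.09 on mimic, and 8.94, 8.97 and 8.99 on antimiR-206 arrays. Again Day1 lay below the others, but the log2 changes of 0.23 at Day2 (adjusted p = 0.0635) and 0.26 with antimiR-206 (adjusted p = 0.0823) did not pass. Between antimiR-206 and Day2 the difference was 0.02 with a 95% interval of −0.19 to 0.24. Pdia6 read 7.02, 7.26 and 6.87 on Day1 arrays, 7.28, 7.33 and 7.32 on Day2, 7.13, 7.45 and 7.17 on mimic, and 7.02, 7.18 and 7.16 on antimiR-206 arrays. Neighbouring groups overlapped throughout, and its change of 0.26 at Day2 (95% interval −0.02 to 0.55, adjusted p = 0.109) stood beside −0.08 (adjusted p = 0.711) from a dimmer second probe.

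Hspa5, which encodes the central ER chaperone BiP, was dim on this array. Its only probe had a raw intensity of 51.5 to 100.6 and was above background on 8 of 12 arrays: all 3 of Day1, 2 of Day2, 1 of mimic and 2 of antimiR-206. It read 4.99, 4.78 and 5.60 on Day1 arrays, 4.58, 5.06 and 5.39 on Day2, 4.84, 4.61 and 4.54 on mimic, and 4.71, 4.72 and 4.63 on antimiR-206 arrays. All neighbouring groups overlapped and no change passed the test, though with a common 75th percentile it was lower with antimiR-206 than at Day2 (−0.64, adjusted p = 0.0355) and with array weights too (−0.44, adjusted p = 0.0255). Over the alternatives that kept all arrays its limma adjusted p ran from 0.0255 to 0.359. The change from Day1 to Day2 was −0.12 with a 95% interval of −0.58 to 0.35, and its sign turned without Day1 replicate 3 (0.12) or Day2 replicate 1 (0.10). Manf, a secreted ER stress-inducible factor, had raw intensities of 45.1 to 62.7 and was above background on 0 of 12 arrays.

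**Figure D3:**
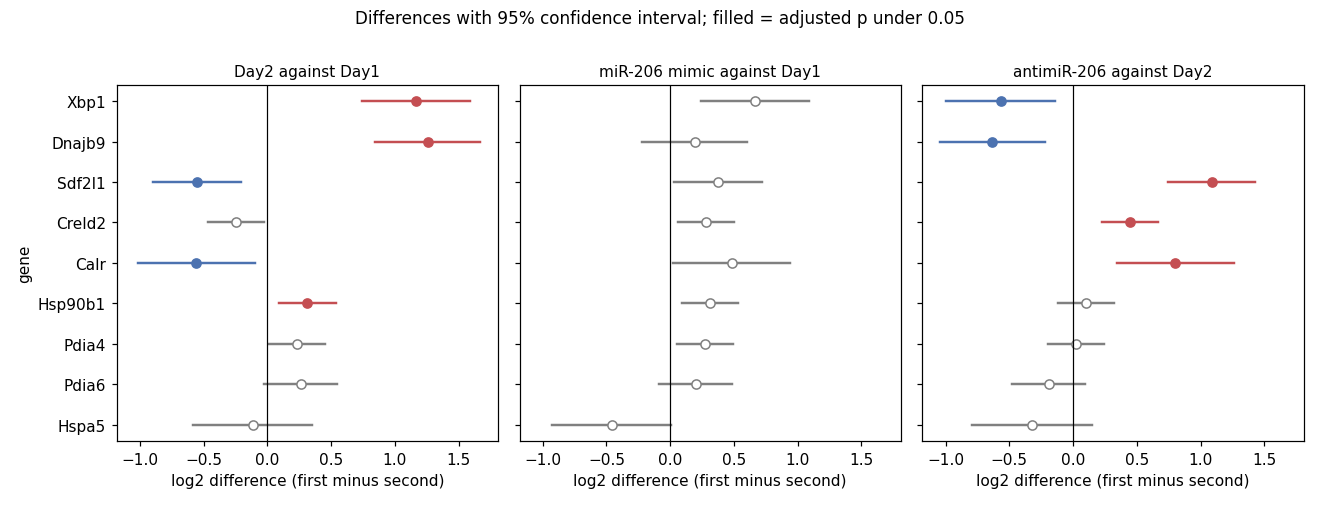
Log2 difference between group means (x axis) for the 9 genes tested (y axis) in 3 comparisons, with 95% confidence intervals; filled points passed adjusted p under 0.05. Xbp1 and Dnajb9 lie to the right at Day2 and to the left with antimiR-206, Sdf2l1 and Calr the reverse, and no point is filled for the mimic.

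Counted over the listed genes, 3 of 9 rose (Xbp1, Dnajb9 and Hsp90b1) and 2 fell (Sdf2l1 and Calr) from Day1 to Day2. This is 55.6% of the genes, beside 57.1% of all genes tested (28.2% higher, 29% lower), and the median log2 change was 0.23 against −0.02 over all genes. The values of 8 of 9 did not overlap, beside 65.9% of all genes. Between antimiR-206 and Day2, 3 of 9 were higher (Sdf2l1, Creld2 and Calr) and 2 lower (Xbp1 and Dnajb9), beside 51.3% of all genes (26.5% higher, 24.9% lower). The median change was 0.02, and the values of 6 of 9 did not overlap, beside 61.8%. Both shares lie near the background, so neither count sets the listed genes apart. The 2 comparisons share the Day2 arrays. Against Day1, antimiR-206 cells had 4 of 9 genes (44.4%) higher (Hsp90b1, Sdf2l1, Xbp1 and Dnajb9) and 0 lower, beside 22.7% of all genes (12.9% higher, 9.78% lower), and the values of 7 of 9 did not overlap, beside 48.2%. Leaving out arrays changed these counts. Of the 5 calls at Day2, 3 remained without Day2 replicate 3, beside 53.6% of all genes. Without mimic replicate 1, 7 of the 9 genes passed, which adds Pdia4 and Creld2, beside 63.1%. Between antimiR-206 and Day2, 3 of the 9 passed without Day2 replicate 2 (beside 44.4% of all genes) or 3 (45.7%) or without antimiR-206 replicate 3 (43.6%). Between antimiR-206 and Day1, 0 of the 9 passed without Day1 replicate 2 (beside 8.19% of all genes), Day1 replicate 3 (6.73%) or antimiR-206 replicate 1 (6.15%). There 1 passed without antimiR-206 replicate 2 (beside 15.8%), and 2 without antimiR-206 replicate 3 (15.4%).

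Scaling moved several of these calls. With arrays scaled to a common median, 0 of the 9 genes passed at Day2 against Day1, beside 17.7% of all genes (57.1% in the reported fit). Xbp1 had 0.88 (adjusted p = 0.281), Dnajb9 1.09 (0.17), Sdf2l1 −0.69 (0.444) and Calr −0.82 (0.316), with their directions kept. The spread within groups was wider under this scaling, with the SE of Hsp90b1 at 0.51 against 0.10 and that of Xbp1 at 0.53 against 0.20. Under the same scaling Sdf2l1 alone passed between antimiR-206 and Day2 (adjusted p = 0.0356), Calr had 1.34 (0.0584) and Creld2 0.96 (0.224). Of all genes 16.8% passed there, against 51.3% in the reported fit. Between antimiR-206 and Day1, 0 of the 9 genes passed with a common median, beside 1.85% of all genes. With a common 75th percentile 1 passed, Xbp1, beside 12.2%. In the reported fit the share of all genes was 22.7%.

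The estimates of the 5 genes with the ERSE letters did not share a direction. From Day1 to Day2, Hsp90b1 rose and Calr fell, while Creld2 (−0.25), Pdia6 (0.26) and Hspa5 (−0.12) did not pass. The 2 calls depended on the fit. Hsp90b1 had 0.04 with a common 75th percentile and −0.06 with a common median. The Calr call was lost whichever of the 6 arrays compared was left out. Hspa5 lay near background, and the second Pdia6 probe had −0.08. Between antimiR-206 and Day2, Creld2 and Calr were higher, and the differences of Hsp90b1 (0.10), Pdia6 (−0.19) and Hspa5 (−0.32) did not pass. The genes with the largest Day2 rises, Xbp1 and Dnajb9, had no ERSE letters in this window, and no inference about XBP1 or ATF6 binding follows from it.

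With the miR-206 mimic, 0 of the 9 listed genes passed the test against Day1, beside 8.47% of all genes (4.38% higher, 4.08% lower). At an unadjusted p under 0.05 there were 6 of 9, beside 29.6% of all genes, and the values of 4 of 9 did not overlap (Hsp90b1, Pdia4, Creld2 and Xbp1), beside 24.6%. On the second Creld2 probe the values overlapped. The median log2 change was 0.28 against 0.00 over all genes, and 8 of 9 estimates were above 0. The estimate for Xbp1 was 0.67 (95% interval 0.24 to 1.09, adjusted p = 0.0519) and that for Calr 0.48 (0.02 to 0.94, adjusted p = 0.151). For Dnajb9 it was 0.19 (−0.22 to 0.61, adjusted p = 0.542), and the second Dnajb9 probe gave 0.34 (adjusted p = 0.232). The Day2 change of 1.26 on the main probe lies outside that interval. Both changes share the Day1 arrays, and the difference between mimic and Day2 was not tested. Hsp90b1 had 0.31 (adjusted p = 0.0682), Pdia4 0.27 (0.0957), Creld2 0.28 (0.0905), Sdf2l1 0.37 (0.135), Pdia6 0.20 (0.335) and Hspa5 −0.46 (0.176).

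The mimic result moved with single arrays. Mimic replicate 1, which stood close to Day1 over all genes, read 9.79 for Xbp1 beside 10.67 and 10.65 for the other mimic arrays, and 7.09 for Dnajb9 beside 7.86 and 7.51. Without it, in a fit chosen after the values were seen, 4 of the 9 genes passed. Xbp1 rose by 0.96 (adjusted p = 1.5e-05), Calr by 0.71 (adjusted p = 0.00378), Hsp90b1 by 0.34 (adjusted p = 0.0201) and Pdia4 by 0.34 (adjusted p = 0.0115). The others did not pass: Dnajb9 had 0.39 (adjusted p = 0.0695), Creld2 0.26 (0.0692), Sdf2l1 0.29 (0.169), Pdia6 0.26 (0.151) and Hspa5 −0.54 (0.0727). In the same fit 38.1% of all genes passed (4026 genes, against 902 with the array). Without Day1 replicate 2 or 3 or mimic replicate 2 or 3, 0 of the 9 genes and 27 to 38 genes in all passed. With array weights, which give a deviating array less influence, 8 of 9 passed, 7 higher and Hspa5 lower, beside 46.1% of all genes.

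Between antimiR-206 and mimic cells, at 48 h and 24 h, 0 of the 9 genes passed limma's test, beside 0% of all genes. At an unadjusted p under 0.05 there was 1 of 9, Dnajb9 (0.43, 95% interval 0.02 to 0.85), beside 4.76% of all genes. The second Dnajb9 probe gave 0.09 (SE 0.18, adjusted p = 0.982) in the fit over all kept probes. The differences ran from −0.24 for Calr to 0.43 for Dnajb9. Values did not overlap for 1 gene, Creld2, beside 9.83% of all genes, and on the second Creld2 probe they overlapped. With array weights Xbp1 passed at −0.42 (adjusted p = 0.0298) and 4.95% of all genes passed. Without mimic replicate 1, 0 of the 9 genes and 1 gene in all passed. With a common median or 75th percentile the signs of several of these small differences turned, and the median difference of all genes was 0.29 and 0.04, against 0.01 in the reported fit.

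**Figure D4:**
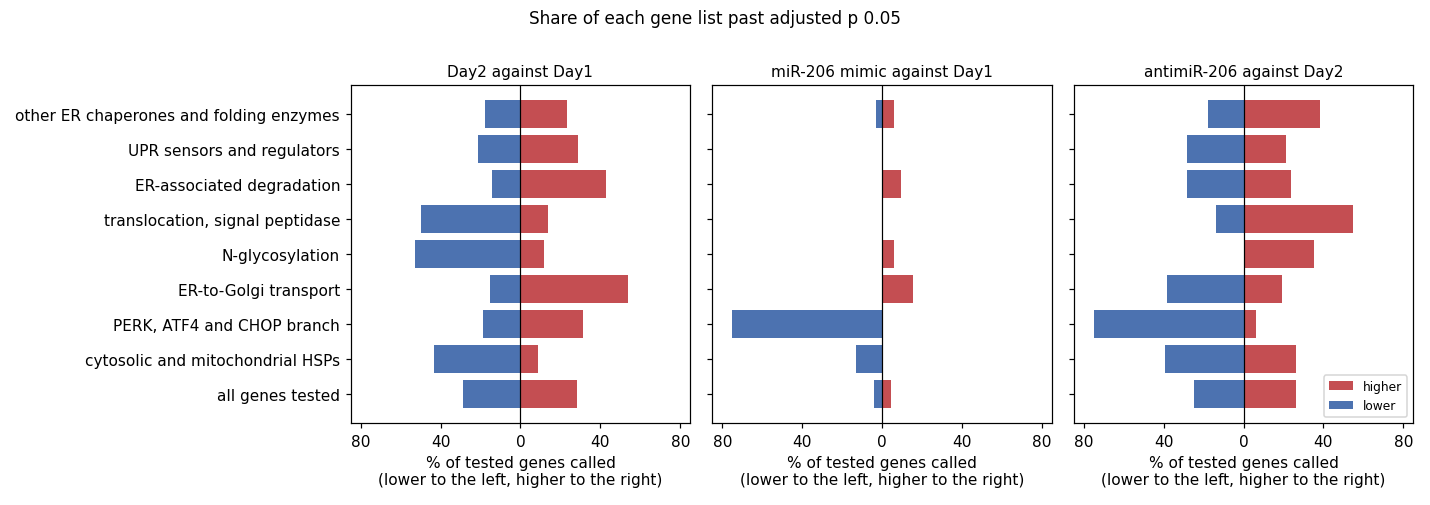
Share of each list's tested genes past adjusted p 0.05 (x axis, percent; higher to the right, lower to the left) in 3 comparisons, with all genes tested in the last row. At Day2 the bars of ER-to-Golgi transport and degradation extend furthest to the right and those of translocation and N-glycosylation furthest to the left, and the PERK branch extends to the left with both the mimic and antimiR-206.

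The wider ER pathway was counted by step, first for Day2 against Day1, where 28.2% of all genes were higher and 29% lower. Of 34 other ER chaperones and folding enzymes, 8 rose and 6 fell (median −0.06). Creld1, the relative of Creld2, rose by 3.04 on the log2 scale (SE 0.16, adjusted p = 3.04e-09), Sil1, the nucleotide exchange factor of BiP, by 1.62 (SE 0.18), and the thioredoxin-domain isomerase Txndc5 by 0.91 (SE 0.14). Of 21 genes of ER-associated degradation, 9 rose and 3 fell (median 0.23). Fam8a1 rose by 1.76 (SE 0.13), Herpud1, an organiser of the ubiquitin ligase complex, by 1.34 (SE 0.12), and Os9, a lectin that delivers misfolded glycoproteins, by 1.17 (SE 0.12). ER-to-Golgi transport had 14 of 26 genes higher and 4 lower (median 0.48). Among these Preb, which activates the coat GTPase Sar1, rose by 1.25 (SE 0.11) and Arfgap3 by 1.26 (SE 0.18), whereas Kdelr2, a receptor that retrieves escaped ER chaperones, fell by 1.29 (SE 0.18).

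Among genes of protein entry and glycosylation more fell than rose. Of 22 genes of translocation and signal peptide cleavage, 3 rose and 11 fell (median −0.27). Srprb, a subunit of the signal recognition particle receptor, fell by 0.96 (SE 0.11), Srp19 by 0.83 (SE 0.11) and the channel subunit Sec61b by 0.63 (SE 0.13). Of 17 genes of N-glycan assembly and transfer, 2 rose and 9 fell (median −0.32). The glucosyltransferase gene Alg8 fell by 1.43 (SE 0.20), Ddost, an oligosaccharyltransferase subunit, by 0.98 (SE 0.10) and Alg3 by 0.80 (SE 0.19). Of 14 sensors and regulators of the unfolded protein response, 4 rose and 3 fell (median 0.04). They included Wfs1, an ER membrane protein that restrains ATF6, with a rise of 2.16 (SE 0.15), Tmbim6 with 1.53 (SE 0.16) and the membrane-bound transcription factor gene Creb3 with 0.95 (SE 0.12).

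With antimiR-206 the same lists were counted against Day2, again with shared Day2 arrays, where 26.5% of all genes were higher and 24.9% lower (51.3% in all). The shares called were 68.2% for translocation, 57.7% for transport, 55.9% for the other chaperones, 52.4% for degradation, 50% for the sensors and 35.3% for N-glycan assembly. Translocation had 12 of 22 genes higher and 3 lower (median 0.39, Sec61b 1.21, SE 0.13), and N-glycan assembly had 6 of 17 higher and 0 lower (median 0.13, Alg8 0.89, SE 0.20). ER-to-Golgi transport had 5 of 26 higher and 10 lower (median −0.12, Preb −1.42, SE 0.11). The other chaperones had 13 of 34 higher and 6 lower (median 0.22, Creld1 −3.04, Cnpy4 1.08), and degradation had 5 of 21 higher and 6 lower (median 0.02, Herpud1 −1.61, Fam8a1 −1.26, Sel1l −1.05). Among the 14 sensors and regulators 3 were higher and 4 lower (median 0.07), including Wfs1 (−2.16), Tmbim6 (−1.19) and Ern1, which encodes IRE1 itself (−0.94). With arrays scaled to a common median at most 2 genes of any of these 6 lists passed in either direction, in both comparisons. Of all genes 17.7% passed at Day2 and 16.8% between antimiR-206 and Day2 under it. Under that scaling the median of ER-to-Golgi transport between antimiR-206 and Day2 was 0.37 beside 0.31 for all genes, and that of the sensors at Day2 was −0.09 beside −0.12. Between antimiR-206 and Day1, 12.9% of all genes were higher and 9.78% lower. There transport had 8 higher and 0 lower, the other chaperones 8 and 1, and degradation 5 and 0. Translocation had 2 and 0, N-glycan assembly 3 and 2, and the sensors 0 and 0. With a common median 0 genes of these lists passed there, beside 1.85% of all genes.

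With the mimic 8.47% of all genes passed, and the lists had 15.4% (transport), 9.52% (degradation), 8.82% (other chaperones), 5.88% (N-glycan assembly), 0% (translocation) and 0% (sensors). Of the other chaperones 2 were higher and 1 lower, of degradation 2 and 0, of translocation 0 and 0, of N-glycan assembly 1 and 0, of transport 4 and 0, and of the sensors 0 and 0. The genes were Fkbp14 (0.72, SE 0.20), Pdia3 (0.36, SE 0.10) and Mogs (−0.56, SE 0.15), Os9 (0.52) and Rnf5 (0.45), Dad1 (0.41), and in transport Tmed10 (0.51), Kdelr3 (0.43) and Cope (0.39). Without mimic replicate 1 the counts were 15 higher and 4 lower for the chaperones, 14 and 1 for transport, 8 and 1 for degradation, 4 and 0 for the sensors, 2 and 1 for translocation and 2 and 4 for N-glycan assembly, beside 18.4% of all genes higher and 19.7% lower. The 9 named genes passed in that fit too, with log2 changes of 0.37 to 0.94 in size. All 9 calls were lost without Day1 replicate 2 (adjusted p = 0.108 to 0.156), Day1 replicate 3 (0.113 to 0.15), mimic replicate 2 (0.075 to 0.218) or mimic replicate 3 (0.107 to 0.192), and 7 were lost without Day1 replicate 1. All 9 were also lost with the replicate number as a block (0.0602 to 0.0915) and with only the arrays compared (0.154 to 0.169). With a common median or 75th percentile, 0 genes of these 6 lists passed for the mimic, beside 0.235% and 1.62% of all genes.

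The PERK, ATF4 and CHOP branch was counted apart, with 16 genes tested. It had 5 higher and 3 lower at Day2 (50%, beside 57.1% of all genes, median −0.03), with Phgdh at −1.74, Nupr1 at 1.33 and Vldlr at 1.24. With the mimic 0 were higher and 12 lower (75% of the branch, beside 8.47% of all genes in either direction, median −0.87), including Trib3 (−3.39), Chac1 (−2.80) and Asns (−1.83). Without mimic replicate 1 there were 2 higher and 13 lower (median −1.01), beside 38.1% of all genes in either direction. In that fit Trib3 was at −4.21, Chac1 at −3.69 and Asns at −2.44. Between antimiR-206 and Day2, 1 was higher and 12 lower (81.2%, beside 51.3% of all genes, median −1.04), including Chac1 (−3.91), Trib3 (−3.60) and Ddit3, which encodes CHOP (−2.39). Over the same arrays Xbp1 and Dnajb9 had estimates of 0.67 and 0.19 with the mimic. The branch count for the mimic was 0 when only the arrays compared entered the fit, beside 0.0282% of all genes. It was 2 with a common median (beside 0.235%) and 5 with a common 75th percentile (beside 1.62%). It was 3 without Day1 replicate 2 (beside 0.274%), Day1 replicate 3 (0.255%) or mimic replicate 3 (0.303%). Without mimic replicate 2 it was 4 (beside 0.361%). The median of the branch for the mimic stayed between −1.01 and −0.62 over all settings. Between antimiR-206 and Day1 the branch had 1 higher and 13 lower (87.5%, beside 22.7% of all genes, median −1.08). With a common median these counts were 0 and 6, beside 1.85% of all genes. Heat shock proteins of the cytosol and mitochondria, which do not act in the ER, had 2 of 23 higher and 10 lower at Day2 (52.2%, median 0.02), with Hspb8 at 2.15, Cryab at 2.06 and Hspe1 at −1.47. They had 0 higher and 3 lower with the mimic (13%, median −0.21, Hspd1 −0.74, Hspa9 −0.63, Hspe1 −0.59). Without mimic replicate 1 these were 0 and 9 (median −0.23, Hspd1 −0.97, Hspa9 −0.79, Hspe1 −0.68), beside 38.1% of all genes. They had 6 higher and 9 lower between antimiR-206 and Day2 (65.2%, median −0.12, Hspb8 −2.29, Cryab −2.06, Hsph1 −0.88). With a common median the heat shock medians were −0.37 at Day2, beside −0.12 for all genes, and 0.26 between antimiR-206 and Day2, beside 0.31.

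The pattern over the 12 arrays was summarised as the mean standardized level of the 9 genes tested. It ran from −0.78 to −0.40 on Day1 arrays, from −0.18 to 0.26 on Day2, from −0.14 to 0.57 on mimic and from 0.19 to 0.37 on antimiR-206 arrays. The members followed it to different degrees, with Pearson's r from −0.43 for Hspa5 to 0.89 for Hsp90b1, so the mean does not stand for each gene. Among the other genes tested, the 5 most like it were the chemokine gene Ccl11 (r = 0.957), Ppp2r3d (0.957), the glycosyltransferase gene A4galt (0.947), the lysosomal cholesterol carrier gene Npc2 (0.946) and the matrix glycoprotein gene Sparc (0.942). Over the 9 arrays without Day2 their r was 0.956 to 0.986. These values describe arrays that share their groups, and they were picked as the highest of all genes.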

How the data were processed

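RNA of 12 C2C12 samples was measured on Illumina bead arrays. The deposited scanner table holds raw intensity on a linear scale, with no normalization recorded, and per the file headers a detection column beside it. In the deposited table this column is headed as a p-value yet is a score that increases with intensity; its complement to 1 served as detection p. A deposited table of the authors' processed log2 values was an alternative, made with lumi (no version) per the submitters' processing notes. For Day2 replicates 2 and 3 each scanner column had the rank order of the other's processed column (Spearman rho 1, but 0.882 for equal labels), so only the Day2 group as a whole is read here across both tables.

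Intensities were background-corrected with normexp (limma 3.58.1 in R 4.3.3, offset 16), quantile-normalized and put on a log2 scale. Probes with detection p under 0.05 on at least 3 arrays were kept (19809 of 45281). Of all probes 34885 had 1 gene symbol in the platform annotation, 18 several and 10378 none. The brightest kept probe stood for each of 10653 genes. A 4-group model was fitted with lmFit and eBayes with an intensity trend (residual df 8, prior df 5.36), with Benjamini-Hochberg adjustment over all genes and a threshold of 0.05. The number of arrays limits the precision. Tested on simulated data for Day2 against Day1 over 10653 genes, the fit recovered 26 of 67 genes changed by 0.5, 52 of 67 by 1 and 66 of 66 by 2, with 5 false calls. Far fewer genes were changed there than the 57.1% called in the data, and independent noise was added after normalization. These figures therefore check the code and do not give the power or the false calls of the reported fit. No 2 arrays held duplicate values (at most 0.775% of raw values equal). Same-numbered replicates did not pair: 3 of 18 pairs of deviations correlated above 0.1 (−0.55 to 0.167). Deviations of unlike number did correlate between the transfected groups. Mimic replicates 2 and 3 had 0.484 and 0.434 with antimiR-206 replicate 1, and mimic replicate 1 had 0.433 and 0.36 with antimiR-206 replicates 2 and 3. The remaining unlike-numbered pairs of these groups had −0.321 and −0.345. The fit treated the arrays as independent.

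The members and gene lists were chosen with earlier results of these data known. All members were named, and of each list up to 3 called genes with the largest change per comparison, plus the 5 genes most correlated with the members' mean. Alternatives covered background correction, scaling, processed values, filter, replicate block, arrays in the fit, array weights, probe choice, variance trend and each array left out. Promoters were RefSeq tables of GRCm38.p6 (32851 promoters of 27025 genes).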

Additional observations from a re-analysis of the deposited data

How the results depend on the processing

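Over 12 other settings, 485 of 540 log2 changes of the members kept their direction and their side of the threshold, 25 lost the call, 17 gained one and 13 changed sign; with each array left out the numbers were 482, 36, 10 and 12 of 540. For the other named genes, 734 of 850 kept both under other settings (111 lost the call, 5 changed sign) and 736 of 849 with an array left out (109, with 1 gained and 3 changed sign). A common median shifted the median change of all genes by 0.28 (antimiR-206 against Day2), 0.17 (against Day1) and 0.27 (against mimic), so signs under it are to be read beside that shift; the cause was not tested.

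With a common median 1881 genes and 0 members passed for Day2 against Day1, 25 genes for the mimic (36% higher, against 51.8% in the reported fit), 1790 genes and 1 member for antimiR-206 against Day2 (64.8% higher, against 51.6%), 197 genes and 0 members against Day1 (79.2% higher, against 56.8%) and 1 gene against mimic. Signs turned for Hsp90b1 at Day2 (−0.060), Pdia6 between antimiR-206 and Day2 (0.23), and between antimiR-206 and mimic for Pdia4 (0.35), Pdia6 (0.20), Creld2 (0.28), Calr (0.10) and Xbp1 (0.28). With a common 75th percentile 173 genes passed for the mimic (71.7% higher) and 1299 genes and 1 member for antimiR-206 against Day1 (69.4% higher). Signs turned for Hspa5 at Day2 (0.064) and, between antimiR-206 and mimic, for Hspa5 (−0.20), Pdia4 (0.10), Creld2 (0.034) and Xbp1 (0.039). Among genes that are not members, the uncalled changes of Alg12 and Ero1b at Day2 turned with a common median (−0.12 and −0.10) and 75th percentile (−0.021 and −0.0089).

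Without the detection filter 183 genes passed for the mimic and 1 member for antimiR-206 against Day1, and with detection on 6 arrays 1 member passed for the mimic (Xbp1, adjusted p = 0.0479). With only the arrays compared 3 genes passed for the mimic and 3793 for antimiR-206 against Day1. Without a variance trend 590 genes passed for the mimic. With all kept probes 10598 probes passed at Day2, 9371 for antimiR-206 against Day2 and 3841 against Day1, since more features were tested. With array weights 4909 genes and 8 members passed for the mimic, 4384 genes for antimiR-206 against Day1, and 527 genes and 1 member against mimic, with Hspa5 (0.021) and Ero1b (−0.17) turned at Day2. With the replicate number as a block, which the check of pairing did not bear out (2 of 12 arrays correlated best with their own number), 53 genes passed for the mimic and 2 members for antimiR-206 against Day1, where Xbp1 (adjusted p = 0.0649) and Dnajb9 (0.0602) lost their calls. In the other counts of the block's fit the number stayed within 1.5 times.

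With each array left out, 5471 to 6674 genes and 3 to 7 members passed at Day2, 27 (without Day1 replicate 3) to 4026 genes (without mimic replicate 1) and 0 to 4 members for the mimic, 4607 to 6163 genes and 3 to 5 members for antimiR-206 against Day2, 648 (without antimiR-206 replicate 1) to 3761 genes and 0 to 5 members against Day1, and 0 to 1 genes and 0 members against mimic. Signs turned within these ranges at Day2 for Hspa5 (−0.29 to 0.12), Ero1b (−0.21 to 0.17) and Alg12 (−0.0061 to 0.15), for Pdia4 between antimiR-206 and Day2 (−0.025 to 0.081), for Pdia6 between antimiR-206 and Day1 (−0.023 to 0.18), and between antimiR-206 and mimic for Hspa5 (−0.040 to 0.11), Pdia4 (−0.088 to 0.038), Calr (−0.47 to 0.037) and Xbp1 (−0.36 to 0.081).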

Other observations

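Outside the listed genes, 32 genes held the ERSE letters in their RefSeq promoter window and 8 of them were tested on the arrays. They were named after their values were seen. Acacb was above background on the 3 Day2 arrays only and passed the filter through them, so it is left out of the counts. From Day1 to Day2, 3 of the other 7 were higher and 0 lower (42.9%, median log2 change 0.15), beside 56.5% of the 10484 genes that were above background in more than 1 group. Syvn1, the ubiquitin ligase of ER-associated degradation, rose by 0.60 (SE 0.15, adjusted p = 0.00339), and Dnajc3, a J-domain protein of the ER, rose by 0.42 (SE 0.13, adjusted p = 0.0144). Spats2l rose by 0.88 (SE 0.25, adjusted p = 0.007). With a common 75th percentile Syvn1 (0.43, adjusted p = 0.132) and Dnajc3 (0.39, adjusted p = 0.0518) did not pass, and with a common median none of the 3 did (adjusted p = 0.234 to 0.768). Dnajc3 also lost the call without Day2 replicate 2 (0.37, adjusted p = 0.0632) or 3 (0.34, adjusted p = 0.0674).

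Between antimiR-206 and Day2, 0 of the 7 were higher and 1 lower, Dnajc3 (−0.39, SE 0.13, adjusted p = 0.0244), beside 50.6% of those genes. With the mimic 0 of the 7 passed limma's test against Day1, beside 8.58%, and estimates for Syvn1 and Dnajc3 were 0.32 (adjusted p = 0.172) and 0.11 (adjusted p = 0.618). Without mimic replicate 1, Syvn1 (0.41, adjusted p = 0.0301), Spats2l (0.81, adjusted p = 0.00217) and Calr4 (0.67, adjusted p = 0.00343) were higher and Pan2 lower (−0.51, adjusted p = 0.0101), beside 38.1% of all genes. With all arrays Alg12, Ero1b, Pan2 and Calr4 passed in none of these 3 comparisons, and Calr4 was above background on 5 of 12 arrays.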
